A study of Mus musculus with 17 samples.

Results

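The transcripts of 10 molecular chaperone genes were followed, mouse by mouse, in the cortex of mice that lacked hnRNPH2 or carried a substitution in it. hnRNPH2 binds RNA and acts in splicing, and its gene is X-linked. The members were Hspa1a, Hspa1b, Hsp90aa1, Hsp90ab1, Hspa5, Hspa8, Hspb1, Hsph1, Dnajb1 and Bag3, chosen by gene symbol. All 10 were found among the 55453 symbols of the deposited table, and all 10 were among the 16265 genes tested. The 17 animals were hemizygous or wild-type males on the C57BL/6J background. Hnrnph2-KO mice, which carry a frameshifting indel whose transcript is subject to nonsense-mediated decay, and R206W knockin mice were sampled at 8 weeks, with 3 mice in each group and 3 wild-type littermates of each line. P209L knockin mice were sampled at 3 weeks, with 3 mice and 2 of their wild-type littermates analysed here. The tissue was bulk cortex, so every value averaged all the cell types in it, and every P209L-line animal was younger than every other animal, so that line and age cannot be told apart.

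Chaperones bind unfolded or partly folded proteins and keep them from aggregating. In the cytosol, the Hsp70 proteins (Hspa8, made constitutively, and Hspa1a and Hspa1b, made on stress) take their clients from Hsp40 proteins such as Dnajb1, exchange nucleotide with the help of Hsph1 or Bag3, and pass clients on to Hsp90 (Hsp90aa1 and Hsp90ab1), while the small heat shock protein Hspb1 holds unfolded proteins without using ATP. Heat shock factor Hsf1 drives the stress-inducible genes through heat shock elements, whereas Hspa5, known as BiP, is the Hsp70 of the endoplasmic reticulum (ER) and a classical target of the unfolded protein response (UPR).

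The promoters were searched for short exact spellings of the sequences through which these stress responses act. The RefSeq promoters used here (build GRCm38.p6) covered 7 of the 10 genes, so those of Hsp90aa1, Hsp90ab1 and Hspa8 were not analysed here. The 250 bases before the start were searched on both strands for a pair of inverted heat shock units, spelled GAANNTTC or TTCNNGAA, and for the ER stress response element, a CCAAT box followed by CCACG at a fixed spacing. A heat shock pair lay in the windows of 4 members (Hspa1a, Hspa1b, Hspb1 and Hsph1), and 12.8% of 32851 promoters held one. The ER stress response element lay in the Hspa5 window, and 0.113% of promoters held it. No pair was in the windows of Dnajb1 and Bag3. The 5 windows are printed 5′ to 3′ on the strand of the gene, with the matched motif in capitals.
Hspa1b: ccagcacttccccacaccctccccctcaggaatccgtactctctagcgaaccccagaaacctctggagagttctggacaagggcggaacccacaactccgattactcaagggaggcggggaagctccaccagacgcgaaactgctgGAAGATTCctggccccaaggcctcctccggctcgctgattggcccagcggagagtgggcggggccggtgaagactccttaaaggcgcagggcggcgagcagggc
Hspa1a: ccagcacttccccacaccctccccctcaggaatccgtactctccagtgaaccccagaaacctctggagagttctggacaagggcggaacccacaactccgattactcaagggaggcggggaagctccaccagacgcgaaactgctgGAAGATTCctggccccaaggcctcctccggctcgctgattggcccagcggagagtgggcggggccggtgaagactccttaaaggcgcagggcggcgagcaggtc
Hspb1: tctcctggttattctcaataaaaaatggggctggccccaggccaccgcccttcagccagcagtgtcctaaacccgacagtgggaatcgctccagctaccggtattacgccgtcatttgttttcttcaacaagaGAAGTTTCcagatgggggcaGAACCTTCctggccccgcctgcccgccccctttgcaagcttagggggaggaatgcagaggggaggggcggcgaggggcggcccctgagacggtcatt
Hsph1: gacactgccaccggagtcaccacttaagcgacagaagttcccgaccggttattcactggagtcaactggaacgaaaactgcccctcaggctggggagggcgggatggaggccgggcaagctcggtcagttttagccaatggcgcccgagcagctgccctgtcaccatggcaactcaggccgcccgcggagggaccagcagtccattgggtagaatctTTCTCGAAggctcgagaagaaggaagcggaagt
Hspa5: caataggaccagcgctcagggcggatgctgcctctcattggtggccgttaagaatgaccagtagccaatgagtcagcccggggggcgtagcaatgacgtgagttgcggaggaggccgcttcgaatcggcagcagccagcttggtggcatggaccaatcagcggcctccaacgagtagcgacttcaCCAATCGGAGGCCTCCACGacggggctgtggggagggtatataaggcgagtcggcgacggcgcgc

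The windows were chr17:34959239-34959488 for Hspa1b and chr17:34972157-34972406 for Hspa1a, both on the minus strand, chr5:135887669-135887918 on the plus strand for Hspb1, chr5:149636337-149636586 on the minus strand for Hsph1, and chr2:34771840-34772089 on the plus strand for Hspa5. The heat shock pair began 104 bases before the start of both Hspa1b and Hspa1a. Hspb1 held a pair at 117 and another at 97 bases before the start, and the ER element of Hspa5 began at 65 bases. Hsph1 had its pair at 33 bases before the start used here and at 54 bases before start 2 of RefSeq. Starts differ between RefSeq and GENCODE, so the windows of Hspa5 and Hsph1 reach into the gene positions given below. The windows of Hspa1b and Hspa1a differed at 3 of 250 bases, T44C, C47T and G249T, with the Hspa1b base first and positions counted from 1 at the 5′ end of the window. A motif match describes the letters of a window and is no measure of binding.

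The pair Hspa1a (chr17:34969190-34972156) and Hspa1b (chr17:34956436-34959238) are neighbouring genes of 1 exon each. Their transcripts were 99.2% identical over 2201 bases in the GENCODE M21 annotation (GRCm38), so reads could be split between them by the authors' quantification, and their sum is given beside each. Hspa1a also overlaps Gm20481 on the opposite strand. On the same strand, Bag3 overlaps 2610306O10Rik, and Hspa8 overlaps Snord14c, Snord14d and Snord14e. How reads of these overlaps were assigned is not known. Hspa8 (chr9:40800984-40810087), Hsp90aa1 (chr12:110690605-110702728) and Hspb1 (chr5:135887919-135889563) have near-identical processed pseudogene copies in the table. The copy with the highest level was Gm15459 for Hspa8 (mean of 193 TPM over the 17 mice, against 1331 TPM for Hspa8), Gm12346 for Hsp90aa1 (64.9 against 985 TPM) and Hsp25-ps1 for Hspb1 (3.64 against 7.04 TPM), so the values of these 3 genes are uncertain by what was assigned to the copies. The other members are Hsp90ab1 (chr17:45567775-45573271), Hspa5 (chr2:34771970-34777547), Hsph1 (chr5:149614287-149636376), Dnajb1 (chr8:83608193-83612653) and Bag3 (chr7:128523616-128546981), for which no copy of at least 300 bases at 95% identity was found.

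Levels are TPM, shares of all transcripts of a library after scaling for transcript length. Each value thus depends on the rest of its library, which limits comparison between mice. The median-of-ratios size factor (the median ratio of a library's genes to their geometric means) was 0.805 in KO control 1. In the other mice it ran from 0.863 (P209L 1) to 1.11 (R206W 3). The depth behind each library is unknown, and precision was judged from the spread between mice. Hnrnph2 itself, the check of the labels, stood at 23.1 ± 1.59 TPM (SD, n = 3) in KO mice against 122 ± 35.7 TPM (SD, n = 3) in their controls, a log2 change of -2.30 (SE 0.17, adjusted p = 8.64e-06, limma). KO control 1 stood apart from the other 8-week libraries. The 13 mitochondrially encoded genes summed to 179944 TPM in it, against 139310 in KO 1, 138856 in KO 2 and 95363 to 121025 TPM in the other 9. The 10 markers of cortical excitatory neurons summed to 701 TPM in it, against 810 in KO 1, 880 in KO 2 and 1004 to 1309 TPM in the other 9. P209L control 2 carried 1785 TPM of choroid plexus and ependymal markers against 7.38 to 33.2 TPM in the other 16 mice, and also the highest sums of oligodendrocyte (6169 TPM) and blood (4884 TPM) markers of all mice. Chaperone results that turn on either library are given with and without it.

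Hspa8, the Hsp90 genes and Hspa5 were the most abundant members, and Hspb1, Bag3 and the Hspa1 pair the least. In R206W controls the means were 1573 ± 65.1 TPM for Hspa8, 1227 ± 31.0 for Hsp90aa1, 877 ± 71.3 for Hsp90ab1, 298.5 ± 7.89 for Hspa5, 199 ± 17.6 for Hsph1, 45.4 ± 2.25 for Dnajb1, 10.1 ± 1.07 for Hspb1, 8.29 ± 0.935 for Hspa1b, 4.69 ± 0.514 for Hspa1a and 3.76 ± 0.546 for Bag3 (SD, n = 3). The stress-inducible Hsp70 pair together stood at 12.98 ± 1.199 TPM, far below the constitutive Hspa8. All 10 genes were above 0 in all 17 mice.

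**Figure D1:**
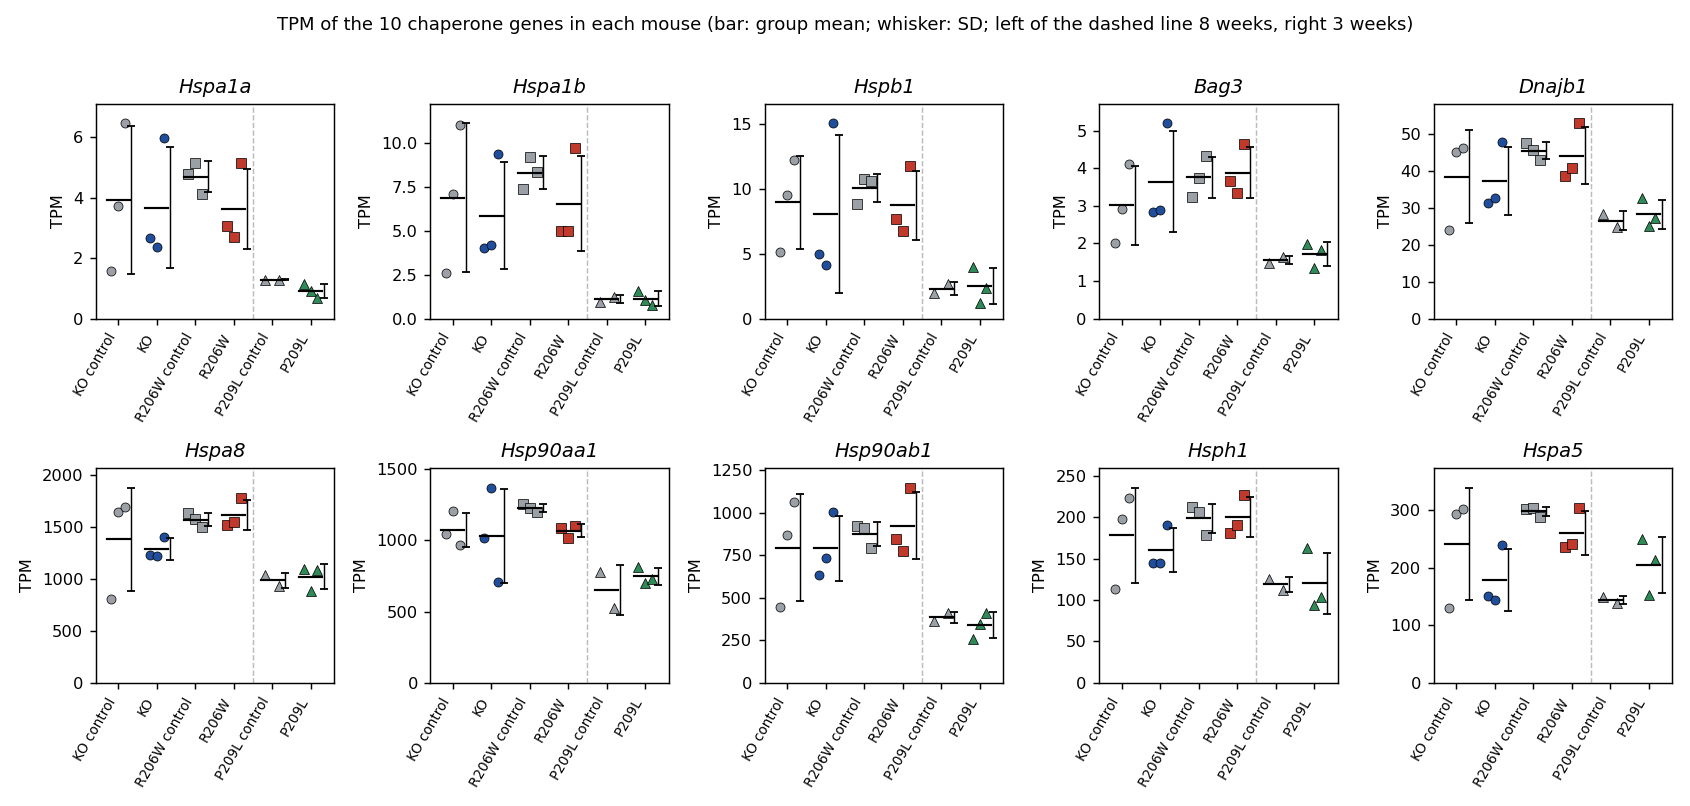
TPM of each of the 10 chaperone genes (vertical axis, linear, from 0) in each mouse of the 6 groups, with the group mean as a bar and the SD as a whisker. The 5 mice of 3 weeks, right of the dashed line, sit below all 12 mice of 8 weeks for Hspa1a, Hspa1b, Hspb1, Bag3 and Hsp90ab1, and within each line the mutant and control points mostly overlap.

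The first question was whether loss of Hnrnph2, or a substitution in its product, changed the chaperones. No member passed the threshold in any line, and in bulk tissue fewer cells of a type and less RNA per cell cannot be told apart. Among the stress-inducible genes, Hspa1b stood at 2.56, 7.06 and 11 TPM in KO controls and at 4.01, 4.18 and 9.36 TPM in KO mice. In the R206W line it stood at 7.34, 9.21 and 8.31 TPM in controls and at 5.0, 4.95 and 9.67 TPM in mutants. In the P209L line it was 0.95 and 1.25 TPM in controls and 1.58, 1.05 and 0.76 TPM in mutants. The groups overlapped in all 3 lines, and in both 8-week mutant groups it was the mouse numbered 3 that stood high. The log2 changes on the log2(TPM + 1) scale, which understates changes of low genes, were -0.12 (SE 0.37) in KO, -0.35 (SE 0.37) in R206W and 0.01 (SE 0.41) in P209L mice, with adjusted p = 0.999, 1 and 1 by limma.

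Hspa1a, too, was highest in the mouse numbered 3 of both 8-week mutant groups. It stood at 1.58, 3.71 and 6.46 TPM in KO controls and 2.67, 2.36 and 5.98 TPM in KO mice, and at 4.80, 5.14 and 4.13 TPM in R206W controls and 3.05, 2.7 and 5.14 TPM in R206W mice. In the P209L line it was 1.27 and 1.29 TPM in controls and 1.15, 0.92 and 0.69 TPM in mutants, so that all 3 mutants lay below both controls. That difference was -0.25 on the log2 scale (SE 0.36, adjusted p = 0.958, limma), the exact permutation test gave p = 0.2 (two-sided, where 3 against 2 cannot go below 0.1), and 10.7% of all tested genes were lower without overlap in this comparison. The summed pair was 2.38 ± 0.226 TPM (SD, n = 2) in P209L controls and 2.05 ± 0.644 TPM (SD, n = 3) in P209L mice, which overlapped.

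The other stress-inducible members were Hspb1, Bag3, the Hsp70 co-chaperone that also hands clients to autophagy, and Dnajb1, the Hsp40 partner of Hsp70. Hspb1 stood at 5.13, 9.54 and 12.3 TPM in KO controls, 4.97, 4.11 and 15.1 TPM in KO mice, 8.83, 10.7 and 10.6 TPM in R206W controls and 7.71, 6.77 and 11.8 TPM in R206W mice. KO 3 had the highest Hspb1 of the 17 mice and KO 2 the lowest of the 12 mice of 8 weeks. Bag3 ranged from 2.00 to 5.19 TPM and Dnajb1 from 23.9 to 52.9 TPM at 8 weeks, with overlap between mutants and controls of either line. The log2 change of Bag3 was 0.21 (SE 0.21) in KO, 0.03 (SE 0.21) in R206W and 0.08 (SE 0.23) in P209L mice, and that of Dnajb1 was -0.01, -0.06 and 0.08 (SE 0.22, 0.22 and 0.24).

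Of the abundant cytosolic genes, Hsp90aa1, the inducible form of Hsp90, was the only member that did not overlap in an 8-week line. It stood at 1258, 1228 and 1196 TPM in R206W controls and at 1090, 1020 and 1098 TPM in R206W mice. All 3 mutants thus lay below all 3 controls, at 87.1% of the control mean. The exact permutation test gave p = 0.1 (two-sided), below which 3 against 3 cannot go, the log2 change was -0.20 (SE 0.19, adjusted p = 1, limma), and 8.11% of all tested genes were lower without overlap in this comparison. Its pseudogene copy Gm12346 stood at 78.1, 79.7 and 75.1 TPM in the R206W controls and 70.4, 63.5 and 69.4 TPM in the R206W mice, without overlap. Reads could be split between Hsp90aa1 and this near-identical copy, so the copy is no independent observation. In the KO line Hsp90aa1 stood at 1048, 1206 and 964 TPM in controls and 1015, 1370 and 707 TPM in KO mice, which held both the highest and the lowest 8-week values.

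Hsp90ab1, the constitutive Hsp90, stood at 449, 870 and 1064 TPM in KO controls, 636, 735 and 1005 TPM in KO mice, 924, 912 and 795 TPM in R206W controls and 845, 779 and 1149 TPM in R206W mice. Hspa8 stood at 808, 1644 and 1696 TPM in KO controls and 1234, 1224 and 1410 TPM in KO mice. Here KO control 1 lay far below its 2 littermates, and the 3 KO mice lay between it and them. Hsph1, the Hsp110 exchange factor of Hsp70, ranged from 113 to 227 TPM at 8 weeks and overlapped in each line. The log2 changes of these 3 genes lay between -0.10 and 0.06 in the KO and R206W lines, with SE of 0.21 to 0.27.

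Hspa5, the ER chaperone, showed the widest differences of group means among the abundant members. It stood at 130, 294 and 303 TPM in KO controls and 151, 144 and 240 TPM in KO mice, a mean of 73.6% of control. In the R206W line it stood at 303, 304 and 289 TPM in controls and 236, 242 and 304 TPM in mutants, a mean of 87.3% of control. In the P209L line it stood at 149 and 139 TPM in controls and 250, 154 and 213 TPM in mutants, a mean of 143% of control with all 3 mutants above both controls. None of these passed the test. The log2 changes were -0.38 (SE 0.27, adjusted p = 0.999) in KO, -0.20 (SE 0.27, adjusted p = 1) in R206W and 0.48 (SE 0.31, adjusted p = 0.818) in P209L mice by limma, the exact permutation p were 0.4, 0.4 and 0.2, and 14.2% of all tested genes were higher without overlap in P209L mice. Without P209L control 2 the P209L change was 0.43 (adjusted p = 1, limma). Whether the P209L change differed from those at 8 weeks was not tested. In the same P209L comparison the values of all 10 oligodendrocyte (median -0.84), 5 tested blood (-0.68), 8 leptomeningeal (-0.46), 8 endothelial (-0.30) and 7 tested mural cell markers (-0.28) were below 0 with none past the adjusted threshold, and 2 of 6 tested striated muscle genes were called lower. Of the 4 tested choroid plexus and ependymal markers, 3 were also below 0 (median -1.26). P209L control 2, with the highest choroid plexus, oligodendrocyte and blood sums, is 1 of the 2 controls here, and these medians include it. In P209L control 1 the oligodendrocyte markers summed to 4145 TPM, against 3031, 3587 and 2504 TPM in P209L mice. Its blood markers summed to 2572 TPM, against 1905, 2837 and 2020 TPM. The part of these markers in the Hspa5 values was not tested.

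Set against all tested genes, 0 of 10 members were called in KO mice (1 of 16265 genes, 0.00615%, was), 0 of 10 in R206W mice (6 genes, 0.0369%) and 0 of 10 in P209L mice (16 genes, 0.0984%), at an adjusted p under 0.05 by limma. At an unadjusted p under 0.05 the counts of members were also 0 in each line, where 4.08% of all tested genes passed it for the KO, 2.19% for the R206W and 7.46% for the P209L line. The smallest unadjusted p of a member was 0.182 in KO (Hspa5), 0.302 in R206W (Hsp90aa1) and 0.135 in P209L mice (Hspa5). In KO mice 8 of 10 members had a log2 change below 0, against 32.5% of all tested genes. In R206W mice it was 6 of 10, against 46.8%, and in P209L mice 3 of 10, against 46.2%. The 95% confidence intervals were widest for Hspb1 (-1.09 to 0.55 in KO) and narrowest for Hsp90aa1 (-0.50 to 0.29 in KO), so changes of that size remained compatible with these mice.

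**Figure D2:**
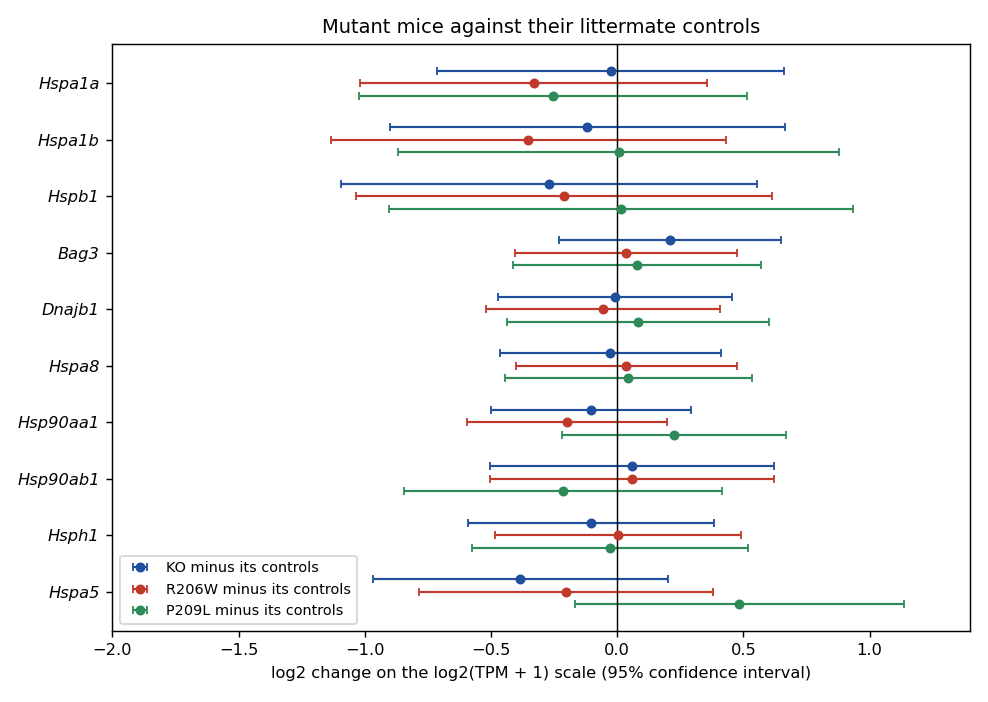
Log2 change (horizontal axis, log2(TPM + 1) scale) of each chaperone gene in KO, R206W and P209L mice against their own littermate controls, with 95% confidence intervals from limma. Every interval includes 0, and the largest changes are those of Hspa5, at -0.38 in KO and 0.48 in P209L mice.

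The KO values turned on single mice. Without KO control 1, 9 of 10 members lay below 0 (median -0.39, against -0.06 with it), Hspa5 had a log2 change of -0.78, and the smallest adjusted p of a member was 0.405, with 0 of 10 called. Without KO control 3, or without KO 2, 3 of 10 members lay below 0, again with 0 called. When each library was weighted by how closely it followed the fit (KO control 1 received a weight of 0.0819 and KO control 2 one of 4.01), 6 of 10 members were called lower in KO mice, namely Hspa5 (-0.92), Hspb1 (-0.83), Hspa1b (-0.68), Dnajb1 (-0.46), Hsph1 (-0.44) and Hspa8 (-0.39), with adjusted p between 0.00349 and 0.0338, and 10% of all tested genes were called lower in the same fit. KO 1 and KO 2 were also next to KO control 1 in mitochondrial and neuronal marker sums, and the part of these in the KO values was not tested. In KO mice all 8 endothelial markers (median log2 change 0.33), all 5 tested blood markers (0.36) and 6 of 7 mural cell markers (0.46) were above 0, as were 67.3% of all tested genes. In R206W mice all 17 immediate-early genes (median 0.41) and all 10 excitatory neuron markers (0.13) were above 0 and all 5 tested blood markers below 0 (-0.48). None of these markers passed the threshold, and their part in the chaperone values was not tested.

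The lines were also compared with each other. The KO effect minus the R206W effect was called for 0 of 10 members (5 genes, 0.0307%, were), with 0 at an unadjusted p under 0.05 (2.29% of all tested genes) and a smallest unadjusted p of 0.515 (Hspa1a). The wild-type littermates of the lines, R206W controls against KO controls, differed in 0 of 10 members and in 0 of 16265 genes at an adjusted p under 0.05 (0%), while 507 genes (3.12%) but no member had an unadjusted p under 0.05. All 10 members had values above 0 in this contrast, as did 83.9% of all tested genes (member median 0.27), but without KO control 1 only 3 of 10 did (member median -0.07, all tested genes -0.0016). The median of all tested genes was 0.13 with TPM as deposited and -0.0025 with median-of-ratios size factors.

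The wider chaperone network was read from lists of related genes. In KO mice, 0 of 38 further cytosolic chaperones, 0 of 13 chaperonin and prefoldin subunits, 0 of 10 mitochondrial chaperones, 0 of 4 heat shock factor genes, 0 of 26 ER chaperones and folding enzymes, 0 of 19 UPR sensors and targets and 0 of 7 other stress genes were called, and the counts were also 0 in R206W and in P209L mice. The ER list had a median log2 change of -0.08 in KO mice (all tested genes 0.06), -0.05 in R206W mice (0.01) and 0.12 in P209L mice (0.02), and 17 of its 26 genes were above 0 in P209L mice, against 53.5% of all tested genes. The UPR transducer Atf6b had the smallest p of its list in each line, with a log2 change of 0.27 (SE 0.21, adjusted p = 0.999, limma) and overlapping groups in KO mice. It stood at 31.9 ± 2.29 TPM in R206W controls and 46.4 ± 5.13 TPM in R206W mice (SD, n = 3), a log2 change of 0.52 (SE 0.21, adjusted p = 1, limma), and at 29.9 ± 0.629 TPM (SD, n = 2) in P209L controls and 46.7 ± 4.94 TPM (SD, n = 3) in P209L mice, a change of 0.62 (SE 0.23, adjusted p = 0.53). In both knockin lines the mutants lay above their controls without overlap, where 8.09% of all tested genes did so in R206W and 14.2% in P209L mice.

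Further genes of the smallest p were, in KO mice, Fkbp5, a steroid receptor co-chaperone (-0.46, SE 0.22), Sdf2l1, an ER cofactor (-0.56, SE 0.32), and Manf, a secreted ER stress protein (-0.31, SE 0.16), each with adjusted p = 0.999 by limma. In R206W mice they were Dnaja1, an Hsp40 (-0.24, SE 0.15), Chordc1, an Hsp90 co-chaperone (-0.17, SE 0.11), and Dnajb9, an ER Hsp40 (-0.22, SE 0.11), each with adjusted p = 1. In P209L mice they were Cryab, the small heat shock protein αB-crystallin (-0.43, SE 0.15, adjusted p = 0.461), Dnajb4, an Hsp40 (0.35, SE 0.12, adjusted p = 0.493), and Hsp90b1, the ER Hsp90 (0.34, SE 0.16, adjusted p = 0.678).

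The contrast with the most calls was between the wild-type controls of 3 weeks (P209L line) and those of 8 weeks. There, 9 of 10 members were called lower at 3 weeks, while 36.1% of all tested genes were called and 24.8% were called lower. All 10 had a log2 change below 0, as did 60.5% of all tested genes. Line and age cannot be told apart here. The largest changes were those of Hspa1b, Hspb1 and Hspa1a. Hspa1b was at 0.95 and 1.25 TPM in the 3-week controls against 2.56 to 11 TPM (median 7.83) in the 6 controls of 8 weeks, a log2 change of -1.94 (SE 0.37, adjusted p = 0.0011, limma). Hspb1 was at 1.94 and 2.64 TPM against 5.13 to 12.3 TPM (-1.65, SE 0.39, adjusted p = 0.00447), and Hspa1a at 1.27 and 1.29 TPM against 1.58 to 6.46 TPM (-1.15, SE 0.32, adjusted p = 0.0126). Bag3 was at 1.48 and 1.64 TPM against 2.00 to 4.32 TPM (-0.75, SE 0.21, adjusted p = 0.011). For these 4 genes the ranges of the wild-type mice did not overlap, and 21.5% of all tested genes were lower without overlap.

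Both Hsp90 genes were also lower. Hsp90ab1 was at 362 and 410 TPM in the 3-week controls against 449 to 1064 TPM (-1.07, SE 0.27, adjusted p = 0.0062), and Hsp90aa1 at 775 and 528 TPM against 964 to 1258 TPM (-0.84, SE 0.19, adjusted p = 0.00313), neither with overlap. Hspa5 was at 149 and 139 TPM against 130 to 304 TPM (-0.85, SE 0.27, adjusted p = 0.0252). Hsph1 was at 126 and 113 TPM against 113 to 223 TPM (-0.63, SE 0.23, adjusted p = 0.0438), and Dnajb1 at 28.4 and 24.7 TPM against 23.9 to 47.6 TPM (-0.61, SE 0.22, adjusted p = 0.0398). For these 3 genes KO control 1, the lowest of the 8-week controls, fell within or below the 3-week values, and the other 5 lay above them. Hspa8 did not pass (-0.54, SE 0.21, adjusted p = 0.052). It was at 1041 and 937 TPM against 808 to 1696 TPM.

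**Figure D3:**
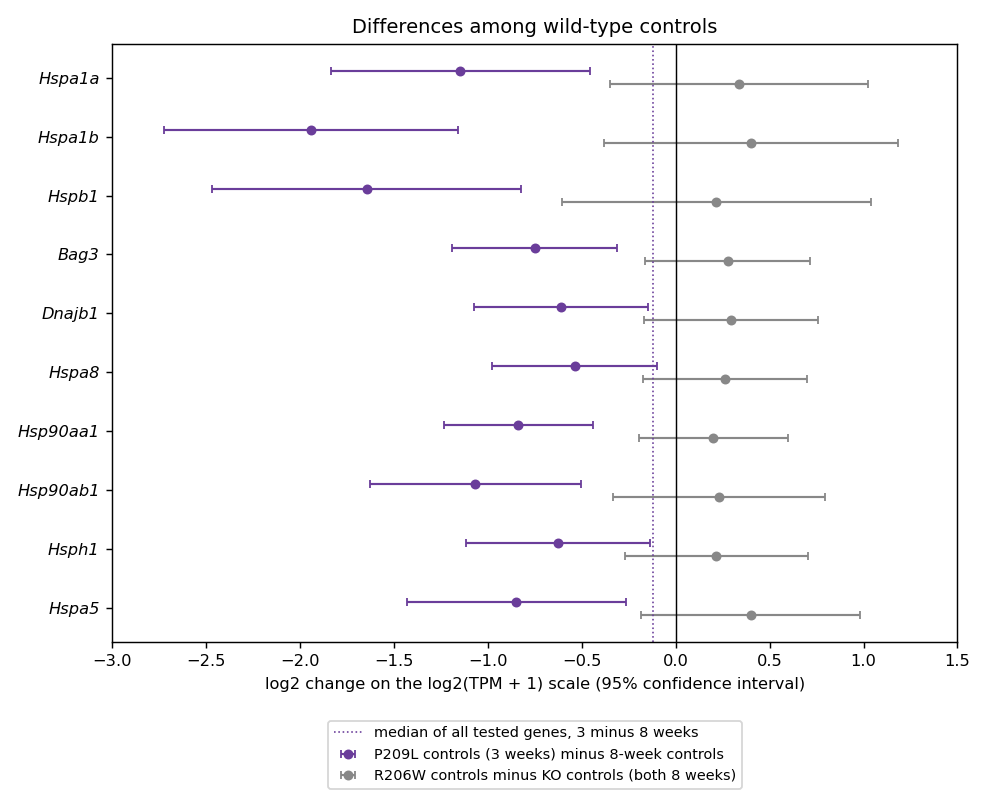
Log2 change (horizontal axis, log2(TPM + 1) scale) with 95% confidence intervals from limma for the wild-type controls alone, as 3-week P209L-line controls minus 8-week controls and as R206W controls minus KO controls of the same age. The members lie between -1.94 and -0.54 in the first, below the median of all tested genes at -0.12, and the intervals of the second all include 0.

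The median log2 change of the members was -0.84, against -0.12 for all tested genes. When TPM were rescaled by median-of-ratios size factors the medians were -0.73 and -0.02. With that rescaling 9 members were again called (Hsph1 was lost at an adjusted p of 0.0555 and Hspa8 gained at 0.0394), with 23.9% of all tested genes called lower. The near-identical copies had changes close to those of their parent genes. Reads could be split between a copy and its parent, so the copies are no independent observations. Hsp25-ps1 had a log2 change of -1.56 (adjusted p = 0.00575), Gm12346 one of -0.72 (adjusted p = 0.00672) and Gm15459 one of -0.53 (adjusted p = 0.0544). The count depended on the 2 libraries of the 3-week controls and on KO control 1. Without KO control 1, 10 members were called, with 37.4% of all tested genes called lower. Without P209L control 1, 2 members were called (Hspa1b and Hsp90aa1) and 13.2% of all tested genes were called lower. Without P209L control 2, the library with choroid plexus markers, 3 members were called (Hspa1b, Hsp90ab1 and Hspb1), with 11.7% of all tested genes called lower. Without both KO control 1 and P209L control 2, 9 members were called (27.9% of tested genes were called lower). Hspb1 and Hspa1b had log2 changes of -1.65 and -1.95 after the trend of GC content was removed from each library, with 8 of 10 members called (24% of tested genes were called lower).

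The mutant mice can be added as a description. Over all genotypes, the 5 mice of 3 weeks lay below all 12 mice of 8 weeks for 5 of 10 members, Hspa1a, Hspa1b, Hspb1, Hsp90ab1 and Bag3, as they did for 10.2% of all tested genes. Hspa1b spanned 0.76 to 1.58 TPM at 3 weeks and 2.56 to 11 TPM at 8 weeks, and Hsp90ab1 spanned 259 to 411 TPM and 449 to 1149 TPM. When the 6 group means of each member were put in order, the 2 groups of 3 weeks were the lowest for 9 of 10 members. Neighbouring groups in that order overlapped among the 4 groups of 8 weeks for every member. The step from the lowest 8-week group to the highest 3-week group had no overlap for Hspa1a, Hspa1b, Hsp90ab1, Hspa8, Hspb1 and Bag3. The share of all tested genes was not computed for this step or for the order of the groups, so neither count is a result about the members. For Hspa8 the lowest 8-week group was KO, and KO control 1, at 808 TPM, lay below the 3-week range of 882 to 1096 TPM. Hspa5 was the exception in its order, with the P209L mice (205.5 ± 48.7 TPM) above the KO mice (178 ± 54.0 TPM, SD, n = 3 each) and their ranges overlapping.

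The other chaperone lists did not move as a block, but some leaned lower. Below 0 were 31 of 38 further cytosolic chaperones, 20 of 26 ER genes and 16 of 19 UPR genes, against 60.5% of all tested genes. For the rest it was 7 of 13 chaperonin and prefoldin subunits, 5 of 10 mitochondrial chaperones, 2 of 4 heat shock factor genes and 4 of 7 other stress genes. Over all tested genes 24.8% were called lower and 11.3% higher, and the counts of several lists lie near those shares. Of the 38 further cytosolic chaperones, 14 were called lower and 2 higher at 3 weeks, with a median of -0.33. Hspa4l, an Hsp110 relative, was at 29.9 ± 4.91 TPM (SD, n = 2) in 3-week controls against 65.2 ± 12.6 TPM in KO controls and 77.9 ± 1.36 TPM in R206W controls (SD, n = 3 each), a log2 change of -1.22 (SE 0.15, adjusted p = 7.21e-05, limma). Chordc1 was at 28.7 ± 3.37, 55.7 ± 5.37 and 60 ± 1.90 TPM in the same groups (-0.99, SE 0.11, adjusted p = 2.98e-05). Of 13 chaperonin and prefoldin subunits 3 were called lower and none higher (median -0.09), with Pfdn2 at -0.61 and Cct4 at -0.42. Of 10 mitochondrial chaperones 2 were called lower and 2 higher (median -0.01), with Clpb at -0.58 and Clpp at 0.26.

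Of 26 ER chaperones and folding enzymes 7 were called lower and 2 higher (median -0.31), lower calls near the share of all tested genes (24.8%). Ero1l, the oxidase that feeds disulfide formation, was at 14.3 ± 1.29 TPM in 3-week controls against 22.4 ± 2.92 and 26.4 ± 0.824 TPM in KO and R206W controls (-0.73, SE 0.11, adjusted p = 0.000217), whereas Ppib, an ER prolyl isomerase, was higher at 233 ± 1.27 TPM against 140 ± 17.9 and 156 ± 1.89 TPM (0.65, SE 0.10, adjusted p = 0.000295). Of 19 UPR sensors and targets 5 were called lower and 1 higher (median -0.27), the sensors Atf6 (-0.75, adjusted p = 0.00531) and Ern1 (-0.62, adjusted p = 0.00875) among the former. Of the 4 tested genes of the heat shock factor list, the factor Hsf4 was called lower and Hsbp1, which binds heat shock factors and is also counted among the cytosolic chaperones, was called higher. Hsf4 was at 2.92 ± 0.643 TPM against 8.85 ± 2.89 and 9.87 ± 1.03 TPM (-1.39, SE 0.19, adjusted p = 0.000132), and Hsbp1 was at 372 ± 41.3 TPM against 226 ± 21.3 and 248 ± 17.6 TPM (0.65, SE 0.11, adjusted p = 0.000502). Among the other stress genes, the metallothionein Mt1 was higher (0.63, adjusted p = 0.0139).

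**Figure D4:**
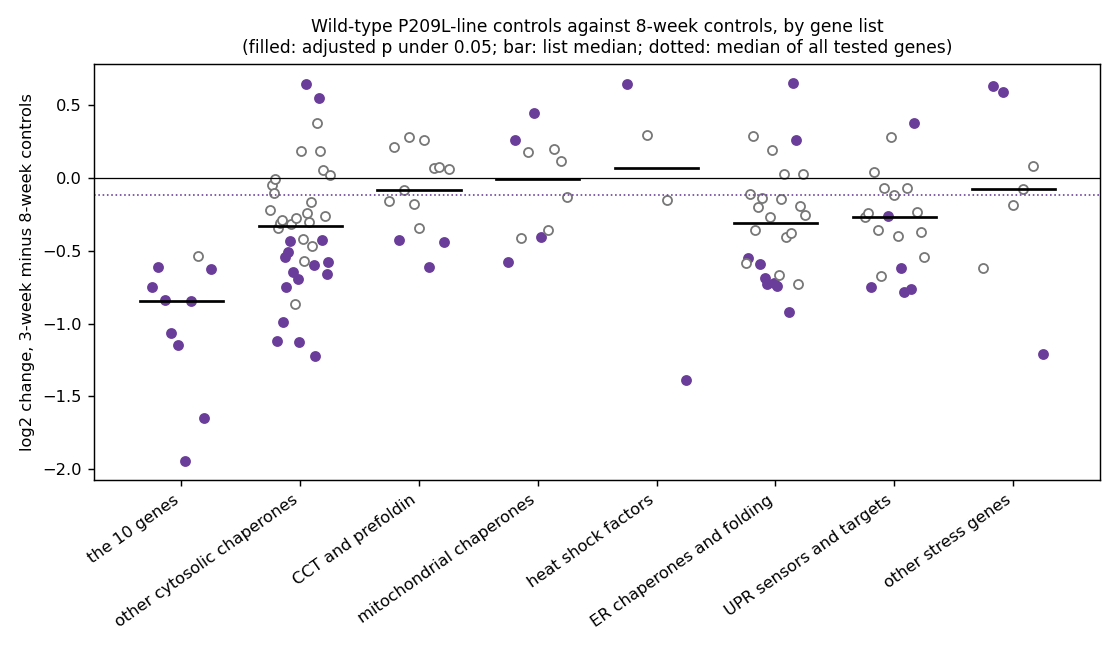
Log2 change of every tested gene of each list (vertical axis) in the 3-week P209L-line controls against the 8-week controls, with filled points for an adjusted p under 0.05 and a bar at the list median. The 10 genes have the lowest median (-0.84, against -0.33 for other cytosolic chaperones and -0.31 for ER genes), and other lists hold genes on both sides of 0.

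Markers of other cell types differed in the same contrast, and their part in the chaperone values was not tested. All 5 tested blood markers were called higher at 3 weeks (median 1.48), 7 of 10 oligodendrocyte markers were higher (0.66), 4 of 10 excitatory neuron markers were lower (-0.35), 7 of 17 immediate-early genes were lower and 1 higher (-0.80), and 6 of 10 glucocorticoid-responsive genes were lower (-0.75). In P209L control 1, without the library of choroid plexus markers, the oligodendrocyte markers summed to 4145 TPM and the blood markers to 2572 TPM, against 2668 to 3654 and 696 to 1252 TPM in the 8-week controls.

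The members varied more between mice of one group than most genes did. Their SD within groups on the log2 scale ran from 0.25 (Hsp90aa1) to 0.55 (Hspb1), with 0.52 for Hspa1b, 0.45 for Hspa1a and 0.38 for Hspa5, against a median of 0.19 for all tested genes, and lay between the 76.9th and 97.9th percentile. The spread was shared. Over the 12 mice of 8 weeks, with each group's mean removed, the summed Hspa1a and Hspa1b correlated with Hsp90ab1 (Pearson's r = 0.96, Spearman's rho = 0.89), Dnajb1 (0.95 and 0.93), Hspa5 (0.95 and 0.97), Hsph1 (0.94 and 0.83), Bag3 (0.93 and 0.96), Hspb1 (0.92 and 0.99) and Hspa8 (0.86 and 0.86). With mice shuffled over all 4 groups, the permutation p adjusted over the 8 relations was at most 0.0004 for each r and at most 0.0017 for each rho. Such p are set against an r of 0, whereas the median r of all other tested genes with the summed pair was 0.60. They therefore do not measure a sharing particular to chaperones. With mice shuffled within their groups alone (1296 orders, a test chosen after seeing the data), the exact p adjusted over the 8 relations lay between 0.0062 and 0.018. Without the 2 mice farthest from the median, KO control 1 and KO control 3, r for these 7 genes ran from 0.69 to 0.95.

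Hsp90aa1 was the exception, with r = -0.46 and rho = -0.30 (permutation p adjusted over 8 relations = 0.123 and 0.343), -0.60 without the 2 farthest mice, and -0.78 (adjusted p = 0.00279) after median-of-ratios rescaling. An r of -0.45 or below was shared by 13.1% of all other tested genes, by 30.8% after rescaling and by 29.9% after removal of the GC trend. Within the 6 mice of the KO line its r was -0.535 and within the 6 of the R206W line 0.505, so the lines did not share a sign, while the other 7 genes ran from 0.88 to 0.97 in the KO line and from 0.75 to 0.96 in the R206W line. Hsp90aa1 had the lowest GC content of the members (43.7% in its longest transcript) and Hspb1 the highest (61.7%). Next lowest were Hspa5 (45.6%) and Hspa8 (45.9%), whose r with the summed pair was 0.95 and 0.86. The part of GC content in these r was not tested. After the trend of GC content was removed from each library (an alternative added after seeing the data), r was -0.64 for Hsp90aa1 (adjusted p = 0.0226, exact p within groups 0.15 after adjustment) and 0.69 to 0.96 for the other 7.

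**Figure D5:**
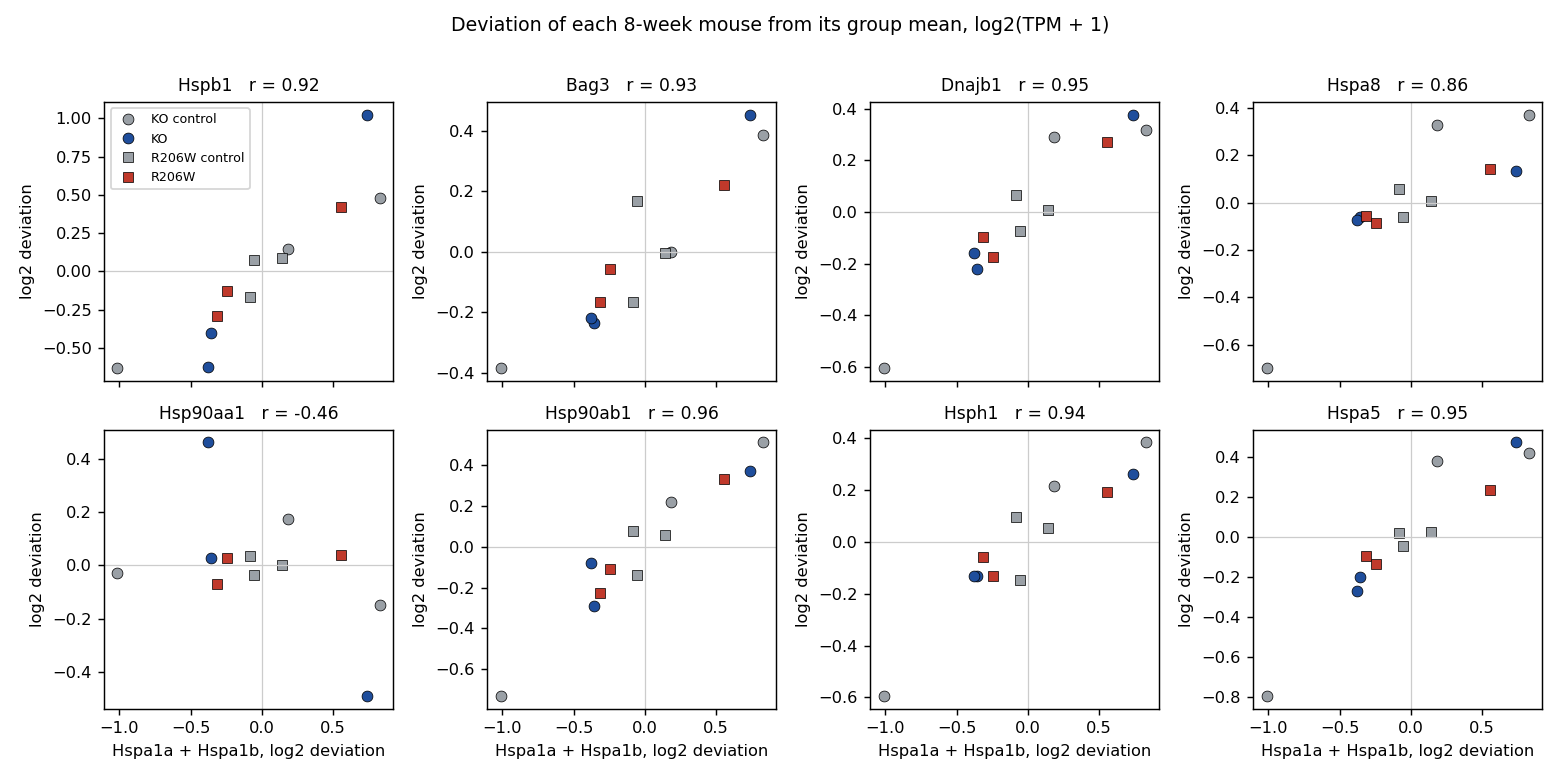
Deviation of each of the 12 mice of 8 weeks from its group mean on the log2(TPM + 1) scale, for 8 members (vertical axes) against the summed Hspa1a and Hspa1b (horizontal axis), with Pearson's r above each panel. KO control 1 is the lowest point on the horizontal axis and KO control 3 the highest, and Hsp90aa1 alone lacks the upward slope, with r of -0.46 against 0.86 to 0.96.

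Such correlations were common among all tested genes. Over all other tested genes, the median r with the summed pair was 0.60, and 28.0% reached 0.85, as 7 of the 8 members compared did. After median-of-ratios rescaling the median r was 0.09 and 14.6% reached 0.85, as did 6 of 8 members. After the GC trend was removed the median was 0.04 and 10.7% reached it, as did 5 of 8. KO control 1 was the lowest of the 12 mice of 8 weeks for 8 of 10 members and for 62.1% of all tested genes, and for 7 of 10 members and 24.4% of genes after rescaling.

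Composition moved with the same axis. With group means removed, the summed Hspa1a and Hspa1b correlated over the 12 mice with the sum of mitochondrially encoded genes at r = -0.94 and rho = -0.91 (-0.87 without the 2 farthest mice), with the sum of excitatory neuron markers at 0.94 and 0.90 (0.88), with the sum of immediate-early genes at 0.78 and 0.81 (0.65), and with the difference between GC-rich and GC-poor genes at 0.90 and 0.97 (0.97). Permutation p adjusted over 8 such relations, 4 for the summed pair and 4 for Hspa5, were at most 0.0026. For these, mice were shuffled over all 4 groups, and shuffling within groups was not run. Such p are again set against an r of 0, whereas the median r of all other tested genes with the summed pair was 0.60. They do not measure a relation particular to chaperones. TPM are shares of 1 total, so these measures are not independent of each other, and their part in the chaperone values was not tested. The difference between GC-rich and GC-poor genes was -0.25 in KO control 1, -0.27 in KO 2, -0.13 in KO 1, 0.22 in KO control 3 and 0.41 in KO 3, and between -0.09 and 0.12 in the R206W line.

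The genes most like the members were taken over all 17 mice, again as deviations from group means, among 16255 candidates, and as a description only, since all of them share libraries and the same axis. For the summed Hspa1a and Hspa1b they were Atad3a (r = 0.98), Rnf123 (0.98), Syvn1 (0.97), Usp19 (0.97) and Dxo (0.97), of which Syvn1 encodes an ER-associated degradation ligase. For Hspa5 they were Pde4a (0.99), Tmem121b (0.98), Gse1 (0.98), Arhgef7 (0.98) and Jade2 (0.97). For Hsph1 they were Mat2a (0.97), Pdia6, an ER disulfide isomerase (0.97), E2f6 (0.97), Siah2 (0.97) and Gm8355, a pseudogene copy of Hspa8 (0.96).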

How the data were processed

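Cortex RNA of 17 male mice was read as stranded total RNA libraries. The authors deposited a table of TPM by gene symbol. Per the labels, Trim Galore, STAR 2.7.1a, GATK 4.0.4.0 and RSEM were used with build mm10, and the annotation release is not given in the sources used here. TPM holds no depth, so no counting error is given. Of 55573 rows, 120 repeated a symbol and were summed. The 16265 genes whose mean over all mice reached 1 TPM were analysed as log2(TPM + 1) with limma 3.58.1 in R 4.3.3 (1 mean per group, all 6 groups in 1 fit, eBayes with trend=TRUE, two-sided), adjusted by Benjamini-Hochberg at 0.05 over all genes of each contrast. The fit was tested on simulated data. Single genes also had an exact permutation test of TPM, and correlations 100000 permutations. Promoters came from RefSeq, gene positions from GENCODE M21, copies from BLAST+ 2.17.0. The named genes were the 10 members, Hnrnph2, the 2 genes of smallest p of each wider list and contrast (a selection is printed, and 1 gene is not reported here), and the 5 genes of highest r. The members and lists were chosen with earlier results of these data known. Alternatives were another pseudocount, filter, scaling, sample weights, fits on own groups, a replicate block and leaving out each mouse; GC-trend removal, the omission of KO control 1 with P209L control 2, and shuffling within groups were added after seeing the data.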

Additional observations from a re-analysis of the deposited data

How the results depend on the processing

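The absence of called members held under each alternative in R206W and P209L mice and, with the exception of the sample weights (6 members), in KO mice. Depth is unknown for TPM, and its effect could not be assessed. Over all genes, limma called 1, 6 and 16 genes in KO, R206W and P209L mice, 5 for the KO minus R206W effect, 0 between the 8-week controls and 5876 between the controls of 3 and 8 weeks. These counts became 2138, 149, 72, 319, 26 and 9470 with sample weights. Without a filter KO and P209L mice had 2 and 52, and P209L mice had 60 with median-of-ratios size factors and 89 without the GC trend. With each comparison fitted on its own groups the counts were 3 in KO, 13 in R206W, 3 for the KO minus R206W effect and 2 between the 8-week controls. Without KO control 1 and P209L control 2 they were 6 in KO, 7 in P209L, 11 for the KO minus R206W effect and 4 between the 8-week controls. Leaving out 1 mouse at a time, where a lone P209L control was assumed to vary like the other groups, gave 1 (without KO control 3) to 6 (without KO control 1) genes in KO mice, 8 (without P209L control 2) to 32 (without P209L control 1) in P209L mice, 3 (without KO control 3) to 13 (without KO control 1) for the KO minus R206W effect, 0 to 4 (without KO control 1) between the 8-week controls, and 2715 (without P209L control 2) to 8186 (without KO control 1) between the ages, with 2 (without P209L control 1) to 10 (without KO control 1) members called in the last. The causes of these shifts were not tested.

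Small log2 changes of members in the mutants turned sign, none past the threshold in the setting that turned it. With a pseudocount of 0.1, Hspa1b (-0.0075) and Hspb1 (-0.019) did so in P209L mice. With size factors it was Hsp90ab1 in KO (-0.023) and Hsph1 in R206W mice (-0.0038). With sample weights it was Hsp90ab1 (-0.40) and Bag3 (-0.036) in KO, Hsp90ab1 (-0.063), Hspa8 (-0.012), Hsph1 (-0.076) and Bag3 (-0.036) in R206W, and Hspa1b (-0.032), Hspa8 (-0.034), Hspb1 (-0.24) and Bag3 (-0.0011) in P209L mice. Without the GC trend it was Hsp90ab1 in KO (-0.026), Bag3 in R206W (-0.023) and Hspa8 in P209L mice (-0.0070), and without both doubted controls it was Hsp90ab1 in KO (-0.31) and Hsp90aa1 (-0.052), Hspa8 (-0.033) and Dnajb1 (-0.011) in P209L mice. Leaving out 1 mouse gave, in KO mice, -0.42 to 0.34 for Hspa1a, -0.61 to 0.27 for Hspa1b, -0.33 to 0.14 for Hsp90aa1, -0.31 to 0.31 for Hsp90ab1, -0.38 to 0.16 for Hspa8, -0.78 to 0.044 for Hspb1, -0.40 to 0.089 for Hsph1, -0.31 to 0.15 for Dnajb1 and -0.018 to 0.40 for Bag3. In R206W mice it gave -0.11 to 0.17 for Hsp90ab1, -0.036 to 0.078 for Hspa8, -0.093 to 0.068 for Hsph1, -0.19 to 0.031 for Dnajb1 and -0.076 to 0.12 for Bag3. In P209L mice it gave -0.14 to 0.13 for Hspa1b, -0.052 to 0.50 for Hsp90aa1, -0.033 to 0.15 for Hspa8, -0.28 to 0.32 for Hspb1, -0.27 to 0.12 for Hsph1 and -0.021 to 0.18 for Dnajb1. Hspa5 kept its direction in each of these settings in all 3 lines.

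Between the 8-week controls, 7 of 10 members turned below 0 without KO control 1 and 2 of 10 with sample weights. Between the ages no member changed sign. Leaving out 1 mouse ended 22 calls and added 1 among 80 values of single members, and the other settings ended 9 and added 5 among 78. Hsph1 and Dnajb1 lost theirs without KO control 2, KO control 3, R206W control 1 or R206W control 2, and Dnajb1 also without R206W control 3. The correlation of Hsp90aa1 with the summed Hspa1 pair passed the threshold with size factors (-0.78) and without the GC trend (-0.64). The mice share replicate numbers across groups. Correlations of same-numbered deviations ran from -0.11 to 0.33, the highest for KO control 3 with KO 3, and those of other pairs from -0.30 to 0.26. KO control 1 correlated best with KO 2, and the labels give no pairs, so the numbers were not taken as pairs. In the P209L line the deviations of the 2 controls mirror each other (0.08 and -0.08 with P209L 1), so that line cannot inform this check. With a replicate block, 9 genes were called in P209L mice and 1 for the KO minus R206W effect, and Hspa8 (-0.0062) and Hsph1 (0.057) turned sign in P209L mice, with 0 members called.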
